A study of Mus musculus with 30 samples.

Results

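This account follows 10 genes through ribosome-associated mRNA of the nucleus accumbens. They are 9 genes of canonical Wnt signalling (Ctnnb1, Axin2, Gsk3b, Dvl1, Dvl2, Dvl3, Tcf7l2, Lef1 and Apc) and Dicer1, the ribonuclease that cuts microRNA precursors. The genes were chosen by symbol, and each was found in the count table by its Ensembl identifier as GENCODE M21 pairs it with that symbol, 10 of 55335 genes in all. All 10 passed the filter on low counts. Female mice carried a haemagglutinin-tagged ribosomal protein (RiboTag, written RT), switched on by Cre either in neurons that express the D1 dopamine receptor (D1-Cre-RT) or in neurons that express the adenosine A2A receptor (A2A-Cre-RT). The second class is the one that carries the D2 dopamine receptor, and its libraries are called D2 here. Controls of each class were compared with mice exposed to chronic witness defeat stress (CWDS), where a mouse sees another mouse being defeated, which were then divided into Resilient and Susceptible by their social interaction scores. All 6 groups carried the tag and a Cre driver, so none was free of either. Each group held 5 libraries, 30 in all, and each library pooled 4 mice with tissue collected 24 h after the social interaction test. No label gives the age of the mice.

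Wnt proteins bind Frizzled receptors and their co-receptors at the cell surface, which recruits Dishevelled proteins to the membrane. Without a Wnt signal, a destruction complex built on the scaffolds Axin and APC holds beta-catenin so that GSK3 beta can phosphorylate it, and the marked protein is degraded. With a signal, beta-catenin accumulates, enters the nucleus and works with the DNA-binding proteins of the TCF and LEF family. Much of this regulation acts on the beta-catenin protein, which mRNA counts do not measure. In the nucleus accumbens, beta-catenin has been linked to behavioural resilience to social stress in mice, with Dicer1 described among its target genes.

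Gene counts per library ran from 28996168 to 65882152. D1 Susceptible replicate 1 was the shallowest library, and the feature Gm42418 took 54.9% of its gene counts. D2 Susceptible replicates 1 and 2 had 15822 and 16525 genes with a count, against 19440 to 22375 in the other libraries. Named class calls in Susceptible mice are given with and without D2 Susceptible replicates 1 and 2. Fits that also left out D1 Susceptible replicate 1 are not given for each of these calls. Counts and shares at an unadjusted p are given only with these libraries included. Of the markers of the labelled neurons, 5, 4 and 6 of 7 D1 markers were higher in D1 in Control, Resilient and Susceptible mice, and 6 of 6 D2 markers were higher in D2 in each (edgeR quasi-likelihood test). The library labelled D2 Resilient replicate 5 stood apart. Its summed D1 markers, 1858 CPM, lay within the 1736 to 2609 CPM of the D1 libraries, against 281 to 1236 CPM in the other D2 libraries. Its summed D2 markers, 4911 CPM, lay between the 1144 to 2829 CPM of the D1 libraries and the 7341 to 12872 CPM of the other D2 libraries. D2 Control replicate 5 differed from its group in the same directions. It held 1236 CPM of D1 markers, against 344 to 717 CPM in the other D2 Control libraries. Its D2 markers summed to 7341 CPM, against 9892 to 12583 CPM. It was left out only in the fits without 1 library. Markers of other cells differed between the classes as well. All 8 of 8 endothelial markers were higher in D2 in each of the 3 class comparisons, with a summed level (CPM, the reads of a gene scaled to a library of fixed size) of 18.5 to 53.2 CPM in the 15 D1 libraries and 80.5 to 370 CPM in the 15 D2 libraries. Mural cell markers were higher in D2 for 6 of 7 genes in each. In Control, Resilient and Susceptible mice, astrocyte markers were higher in D2 for 5, 7 and 6 of 7 genes and markers of oligodendrocyte precursors and newly formed oligodendrocytes for 3, 3 and 5 of 7. Oligodendrocyte markers were higher in D2 for 0, 2 and 4 of 8 genes and microglia markers for 0, 3 and 1 of 7. Cortical excitatory neuron markers were higher in D1 for 4, 5 and 4 of 5 genes. Interneuron markers were higher in D1 for 4, 4 and 6 of 8 genes and higher in D2 for 1, 0 and 1. Thalamic neuron markers were higher in D1 for 2, 0 and 1 of 6 genes and higher in D2 for 0, 0 and 2. The part of these cells in the class differences given next was not tested. No endothelial or mural marker was at 0 in all 5 libraries of a group.

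Before the values, the start regions of 2 of the genes are shown. Lef1 was the member called between D1 and D2 libraries in each condition, and Axin2 is the commonly used transcriptional readout of Wnt signalling. Sequences are from RefSeq (GRCm38.p6), 5′ to 3′ on the strand of the gene, and each covers 250 bases before and 50 bases after an annotated start. Capitals mark a match to a word bound by TCF and LEF proteins, searched on both strands as the word CTTTGAA, the word CTTTGAT, the word CTTTGTA or the word CTTTGTT. The first Lef1 window is chr3:131110047-131110346 and the fourth is chr3:131156044-131156343, at a start inside the gene. The Axin2 window is chr11:108920099-108920398. All lie on the plus strand.

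Lef1 window 1: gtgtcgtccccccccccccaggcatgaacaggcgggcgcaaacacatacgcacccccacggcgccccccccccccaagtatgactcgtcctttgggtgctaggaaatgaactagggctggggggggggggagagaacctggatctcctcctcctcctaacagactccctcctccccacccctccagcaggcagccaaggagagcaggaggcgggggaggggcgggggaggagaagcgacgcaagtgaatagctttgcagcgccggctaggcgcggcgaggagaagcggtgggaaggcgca

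Lef1 window 4: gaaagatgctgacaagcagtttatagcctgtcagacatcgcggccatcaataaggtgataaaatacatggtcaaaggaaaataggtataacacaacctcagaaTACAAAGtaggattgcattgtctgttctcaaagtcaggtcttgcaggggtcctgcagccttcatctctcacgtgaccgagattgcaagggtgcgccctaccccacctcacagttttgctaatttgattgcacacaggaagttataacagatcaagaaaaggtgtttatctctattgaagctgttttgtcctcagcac

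Axin2 window: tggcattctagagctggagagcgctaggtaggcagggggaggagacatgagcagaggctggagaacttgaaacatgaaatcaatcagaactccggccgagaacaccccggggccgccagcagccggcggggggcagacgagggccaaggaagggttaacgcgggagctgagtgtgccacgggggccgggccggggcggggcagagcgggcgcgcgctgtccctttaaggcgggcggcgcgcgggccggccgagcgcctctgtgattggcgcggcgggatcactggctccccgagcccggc

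The fourth Lef1 window held the word CTTTGTA on the opposite strand, printed as TACAAAG, which begins 147 bases before the start. Of 32851 RefSeq windows of this length, 5544 (16.9%) held at least 1 of the 4 words. Among the windows found for 9 of the 10 genes, the only other match was CTTTGTT in the second Tcf7l2 window. The first Lef1 window and the Axin2 window held none of these letters, which says nothing of TCF or LEF binding there or elsewhere in the gene.

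The 10 genes covered a wide range of abundance. Levels between genes are compared as CPM per kilobase of exon, scaled by TMM, as mean ± SD over all 30 libraries. Ctnnb1, which encodes beta-catenin, was the most abundant at 113 ± 5.46 CPM per kilobase. Gsk3b, the kinase of the destruction complex, followed at 27.6 ± 2.44, and Apc, a scaffold of the same complex, at 12.4 ± 2.13. Of the Dishevelled genes, whose products relay the signal from the receptor, Dvl1 stood at 7.36 ± 1.08, Dvl3 at 4.50 ± 0.547 and Dvl2 at 1.63 ± 0.301 CPM per kilobase. Dicer1 stood at 2.36 ± 0.238 and Axin2, a scaffold of the destruction complex that is itself induced by Wnt signals, at 2.23 ± 0.416. The transcription factor genes were lowest, Lef1 at 0.307 ± 0.365 and Tcf7l2 at 0.213 ± 0.165 CPM per kilobase. Neighbours in this order kept it in 29 or 30 of 30 libraries, except that Dicer1 lay above Axin2 in only 17 and Lef1 above Tcf7l2 in only 14.

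The genes also differed in how much they varied. The coefficient of variation over the 30 libraries was 4.83% for Ctnnb1, 8.84% for Gsk3b and 10.1% for Dicer1. It was 12.2% to 18.6% for Dvl3, Dvl1, Apc, Dvl2 and Axin2. Tcf7l2 (77.4%) and Lef1 (119%) varied far more, and both were low enough for some libraries to rest on few reads. Lef1 had 0 to 54 reads per D1 library and 24 to 826 per D2 library. Tcf7l2 had 25 to 395 reads per library.

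**Figure D1:**
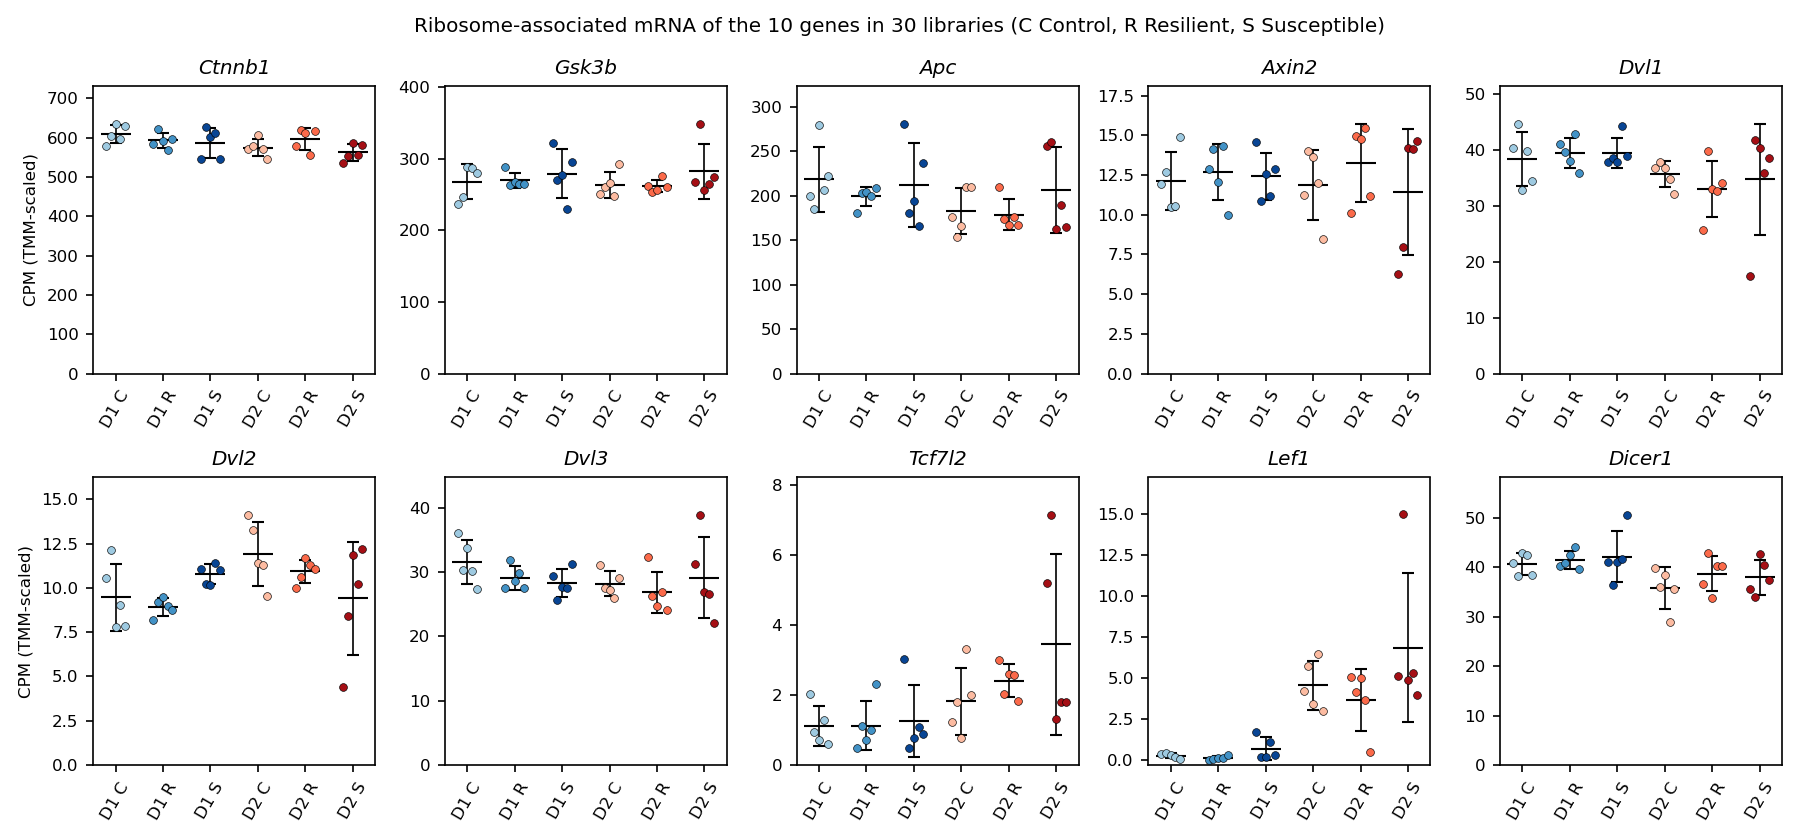
Each panel shows 1 gene, with the 30 libraries as points in CPM (vertical axis, linear, TMM-scaled, different range in each panel) by group, and lines give the mean and SD of the 5 libraries. Ctnnb1 stays between 534 and 636 CPM throughout, while Lef1 is higher in every D2 library than in the D1 libraries of the same condition.

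Calls between the D1 and D2 libraries fell on the transcription factor genes, Lef1 in each condition and Tcf7l2 in Susceptible mice. In Control mice, Lef1 stood at 0.362, 0.426, 0.283, 0.185 and 0.0728 CPM in D1 replicates 1 to 5. It stood at 4.18, 5.74, 3.42, 6.45 and 3.00 CPM in D2 Control. Every D2 Control library was above every D1 Control library, and Lef1 mRNA was 16.7-fold higher in D2 (log2 difference of D1 minus D2 -4.07, SE 0.681, and adjusted p 0.000156 from the quasi-likelihood F test of edgeR with Benjamini-Hochberg adjustment over 19368 genes). Lef1 was 1 of 10 members called there, while 8.3% of all genes tested were called, 3.51% higher in D1 and 4.8% higher in D2.

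In Resilient mice, Lef1 was not counted in D1 replicate 1, which allows up to 0.0582 CPM there before TMM scaling. Lef1 stood at 0.0774, 0.124, 0.109 and 0.332 CPM in D1 replicates 2 to 5. The D2 Resilient libraries held 5.05, 4.15, 5.01, 3.65 and 0.483 CPM. The groups did not overlap, although replicate 5 of D2 Resilient lay close to the D1 range. That library is the one with summed D1 markers at the level of D1 libraries (1858 CPM, against 371 to 487 CPM in the other D2 Resilient libraries) and the fewest D2 markers. The log2 difference was -4.81 (SE 0.724, edgeR adjusted p 3.25e-05), and -5.07 (adjusted p 3.52e-06) without that library. In this comparison Lef1 was again 1 of 10 members called, against 6.65% of all genes, 2.75% higher in D1 and 3.9% higher in D2.

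Among Susceptible mice the D1 libraries held 1.72, 0.209, 0.161, 1.11 and 0.293 CPM of Lef1. The D2 libraries held 5.13, 14.96, 4.86, 5.31 and 3.99 CPM, again without overlap. The log2 difference was -3.47 (SE 0.670, edgeR adjusted p 0.000493). It was -2.96 (adjusted p 0.00474) without D2 Susceptible replicates 1 and 2. Here 2 of 10 members were called, both higher in D2, against 23.9% of all genes, 10.5% higher in D1 and 13.4% higher in D2.

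Lef1 values are set here beside the endothelial markers. D2 Resilient replicate 5, the D2 library with the least Lef1, also had the lowest endothelial sum of the D2 libraries at 80.5 CPM. Among D1 libraries, the highest Lef1 values fell in Susceptible replicates 1 and 4, with endothelial sums of 43.9 and 53.2 CPM and mural sums of 36.4 and 35.1 CPM. The 2 did not always go together: D1 Control replicate 1 had an endothelial sum of 44.0 CPM with 0.362 CPM of Lef1, and D2 Susceptible replicate 2, with the most Lef1, had a sum of 274 CPM, within the range of its group. Set against the endothelial sum, Lef1 amounted to a median of 0.794% (0 to 3.93%) in D1 and 1.76% (0.600% to 5.46%) in D2. Between class means, Lef1 went from 0.365 to 5.03 CPM and the endothelial sum from 28.1 to 251 CPM. The part of endothelial or mural RNA in the Lef1 difference was not tested. Whether the Lef1 class difference changed with stress was tested as a difference of differences, and none passed (Susceptible against Control 0.60, edgeR adjusted p 0.853, Resilient against Control -0.74, adjusted p 1.00, Susceptible against Resilient 1.34, adjusted p 0.569). In bulk samples such as these, fewer cells of a type cannot be told apart from less RNA per cell.

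Tcf7l2, which encodes the other TCF family member of the set, had a smaller class difference that depended on the libraries included. The D1 libraries held 2.03, 0.954, 0.716, 1.27 and 0.607 CPM in Control. They held 0.487, 1.10, 0.724, 0.998 and 2.31 CPM in Resilient, and 3.04, 0.475, 0.769, 1.09 and 0.899 CPM in Susceptible. The D2 libraries held 1.24, 1.81, 0.782, 3.31 and 2.01 CPM in Control. These groups overlapped in every one of the class comparisons.

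In D2 Resilient, Tcf7l2 stood at 3.02, 2.03, 2.60, 2.59 and 1.83 CPM, and in D2 Susceptible at 5.22, 7.15, 1.32, 1.79 and 1.79 CPM. The 2 highest libraries of all were D2 Susceptible replicates 1 and 2. The log2 difference of D1 minus D2 was -0.71 in Control (SE 0.503, edgeR adjusted p 0.505), -1.10 in Resilient (SE 0.506, adjusted p 0.274) and -1.54 in Susceptible (SE 0.521, adjusted p 0.0299). The Susceptible call was lost without D2 Susceptible replicates 1 and 2 (-0.49, edgeR adjusted p 0.610). It was also lost in 6 of 10 fits that left out 1 library, namely D2 Susceptible replicate 1 (-1.35, adjusted p 0.0724) or 2 (-1.08, adjusted p 0.137), or D1 Susceptible replicate 2 (-1.30), 3 (-1.39), 4 (-1.50) or 5 (-1.44). The Susceptible call was also lost when only the D1 and D2 Susceptible libraries were fitted (-1.51, edgeR adjusted p 0.177). The Resilient difference passed in 3 alternatives, limma voom with quality weights (-1.39, adjusted p 0.00141), edgeR on only the D1 and D2 Resilient libraries (-1.11, adjusted p 0.0484) and edgeR without 4 libraries that stood apart (-1.18, adjusted p 0.0471). The class differences in Susceptible and Control mice differed by -0.84 (SE 0.717, edgeR adjusted p 0.741), which did not pass. D2 Susceptible replicates 1 and 2 also had the highest sums of 8 oligodendrocyte markers, 1873 and 1447 CPM, against 360.3 to 1352 CPM in the other 28 libraries. They also had the highest sums of 6 thalamic neuron markers, 108 and 109 CPM, against 50.01 to 106 CPM in the other libraries. The 2 did not always go together. D1 Control replicate 3 had a thalamic sum of 106 CPM with 0.716 CPM of Tcf7l2, and D1 Susceptible replicate 1 had 78.9 CPM with 3.04 CPM of Tcf7l2. None of the 6 thalamic markers was called in D2 Susceptible minus Control (median log2 -0.02). Between the Susceptible classes, 1 was higher in D1 and 2 in D2. The part of oligodendrocyte or thalamic RNA in the Tcf7l2 values was not tested.

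**Figure D2:**
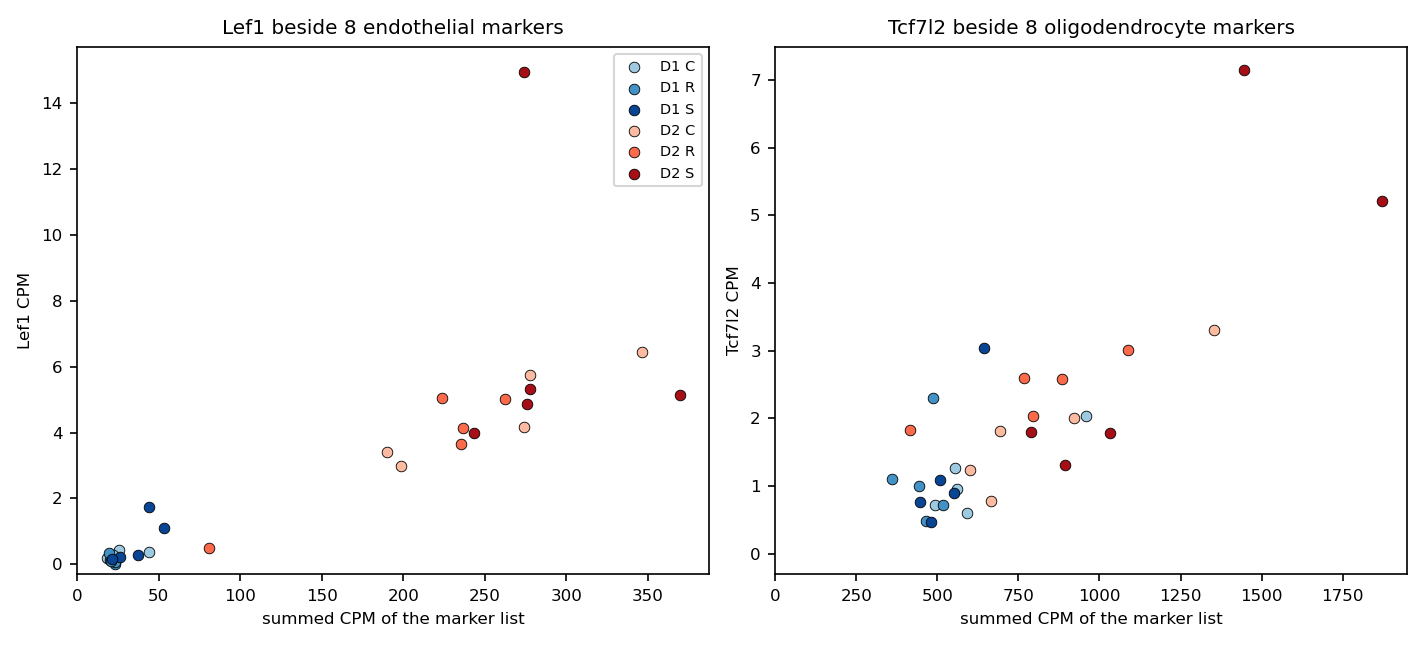
The left panel plots Lef1 (CPM, vertical) against the summed CPM of 8 endothelial markers (horizontal), and the right panel plots Tcf7l2 against the summed CPM of 8 oligodendrocyte markers, with 1 point per library coloured by group. On the left the D1 libraries lie at or under 53.2 CPM of endothelial markers and the D2 libraries at or above 80.5, while on the right D2 Susceptible replicates 1 and 2 lie at 1873 and 1447 CPM of oligodendrocyte markers with the 2 highest Tcf7l2 values.

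Beta-catenin mRNA had no call between the classes or across stress, and its intervals were the narrowest of the set. In D1, Ctnnb1 stood at 579, 604, 636, 596 and 629 CPM in Control. The stressed D1 libraries held 583, 623, 592, 569 and 596 CPM in Resilient and 546, 627, 603, 612 and 546 CPM in Susceptible. In D2 it stood at 571, 579, 606, 571 and 546 CPM in Control. The groups overlapped throughout.

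The D2 Resilient libraries held 579, 620, 611, 555 and 616 CPM of Ctnnb1, and the D2 Susceptible libraries 534, 554, 586, 555 and 581 CPM. The D1 minus D2 difference in Control was 0.08 on the log2 scale (SE 0.0602, edgeR adjusted p 0.513). Over the 6 stress comparisons the log2 differences lay between -0.09 and 0.05, and none was called (smallest edgeR adjusted p 0.451). The 95% intervals of these differences reached from -13.5% to 13.0%, which bounds a change of Ctnnb1 mRNA in any of them. Part of Ctnnb1 shares exon sequence with Ulk4 on the opposite strand (14.6% of its exon bases), and whether counting used strand is not given in the sources used here.

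The destruction complex genes of the set showed no class or stress call either. Gsk3b ranged from 230.2 to 323 CPM in D1 and from 248 to 349.5 CPM in D2. Its stress differences lay between -0.01 and 0.11 on the log2 scale, with 95% intervals from -12.1% to 21.8%. Apc ranged from 165 to 281 CPM in D1 and from 154 to 261 CPM in D2. Mean Apc in Control mice was 219 ± 36.6 CPM for D1 against 183 ± 25.6 CPM for D2, a difference of 0.26 (SE 0.139, adjusted p 0.317 by edgeR) with overlapping groups. Limma voom with sample quality weights called this Apc difference (0.37, adjusted p 0.00228). Axin2 ranged from 9.97 to 14.9 CPM in D1 and from 6.29 to 15.5 CPM in D2, and its 2 lowest values, 6.29 and 7.97 CPM, were D2 Susceptible replicates 1 and 2. The stress differences of Axin2 lay between -0.22 and 0.16, with 95% intervals from -34.0% to 46.1%.

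Of the Dishevelled genes, Dvl1 ranged from 17.4 to 44.7 CPM, Dvl3 from 22.1 to 38.8 CPM and Dvl2 from 4.40 to 14.1 CPM over the 30 libraries. In Control, Dvl2 stood at 10.6, 12.1, 7.76, 9.02 and 7.84 CPM in D1 and at 14.1, 13.3, 11.4, 11.3 and 9.56 CPM in D2. The log2 difference was -0.33 (SE 0.176, edgeR adjusted p 0.302), and it passed with limma voom and sample quality weights (-0.48, adjusted p 0.000577). In Susceptible mice, Dvl2 stood at 11.1, 10.2, 10.1, 11.4 and 10.99 CPM in D1 and at 4.40, 8.39, 11.8, 10.2 and 12.2 CPM in D2. The Susceptible groups overlapped, and the lowest value was D2 Susceptible replicate 1, which was also lowest for Dvl1 at 17.4 CPM. The groups did not overlap in 2 other comparisons, which share the D1 Resilient libraries. The share of all genes without overlap was not counted, so these separations have no background to set them against. D1 Resilient held 8.19 to 9.47 CPM of Dvl2, under the 10.0 to 11.7 CPM of D2 Resilient (log2 -0.29, edgeR adjusted p 0.511) and under the 10.1 to 11.4 CPM of D1 Susceptible (Susceptible minus Resilient 0.27, edgeR adjusted p 1.00), and neither was called. Dvl2 shares 18.3% of its exon bases with Acadvl on the opposite strand.

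Dicer1 had no call in any comparison. In D1 it stood at 40.9, 38.3, 42.9, 42.5 and 38.5 CPM in Control. Resilient libraries of D1 held 40.3, 40.8, 42.5, 44.2 and 39.7 CPM, and those of Susceptible mice 41.0, 36.4, 41.1, 41.6 and 50.6 CPM. In D2 Control, Dicer1 stood at 39.8, 36.0, 38.5, 28.8 and 35.5 CPM. The groups overlapped, with the highest value in D1 Susceptible replicate 5 and the lowest in D2 Control replicate 4.

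The D2 Resilient libraries held 36.7, 42.8, 33.7, 40.2 and 40.2 CPM of Dicer1, and the D2 Susceptible libraries 35.6, 33.9, 42.7, 40.5 and 37.3 CPM. The Control means were 40.6 ± 2.17 CPM for D1 against 35.7 ± 4.25 CPM for D2, a difference of 0.18 (SE 0.0920, adjusted p 0.261 by edgeR). Over the 6 stress comparisons, the Dicer1 differences lay between -0.03 and 0.12 (smallest edgeR adjusted p 0.661). Their 95% intervals reached from -13.9% to 23.4%.

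Stress comparisons gave no call for any of the 10 genes. The 6 comparisons set Susceptible against Control, Resilient against Control and Susceptible against Resilient within each class, and comparisons that share a group are not independent. Across all genes, edgeR called 0% in each of the 3 D1 comparisons. In D2 it called 0.00516% in Susceptible minus Control, 0% in Resilient minus Control and 0.0516% in Susceptible minus Resilient. At an unadjusted p under 0.05, the members passed 1 time in these 60 tests, Lef1 in D1 Susceptible minus Resilient. That Lef1 difference was 2.24 on the log2 scale (SE 0.715, unadjusted p 0.00385, edgeR adjusted p 0.856), between means of 0.700 and 0.129 CPM. Without D1 Susceptible replicate 1 it was 1.75, and without replicate 4 it was 1.83. Leaving out each of the 10 libraries in turn gave 1.75 to 2.96, the highest without D1 Resilient replicate 5.

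The background of unadjusted passes differed between comparisons. In D1 it was 2.4% of genes for Susceptible minus Control, 2.6% for Resilient minus Control and 3.49% for Susceptible minus Resilient. For D2 the shares were 15.7%, 4.2% and 19.1% in the same order, with 0 of 10 members in each. Shares that involve D2 Susceptible include its replicates 1 and 2 and were not recomputed without them. DESeq2 also called 0 of 10 members in each of these comparisons. The Tcf7l2 interval in D2 Susceptible minus Control ran from -0.11 to 1.94 on the log2 scale, so the data set no close bound on that gene. The Lef1 interval in D2 Susceptible minus Control ran from -0.60 to 1.78.

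**Figure D3:**
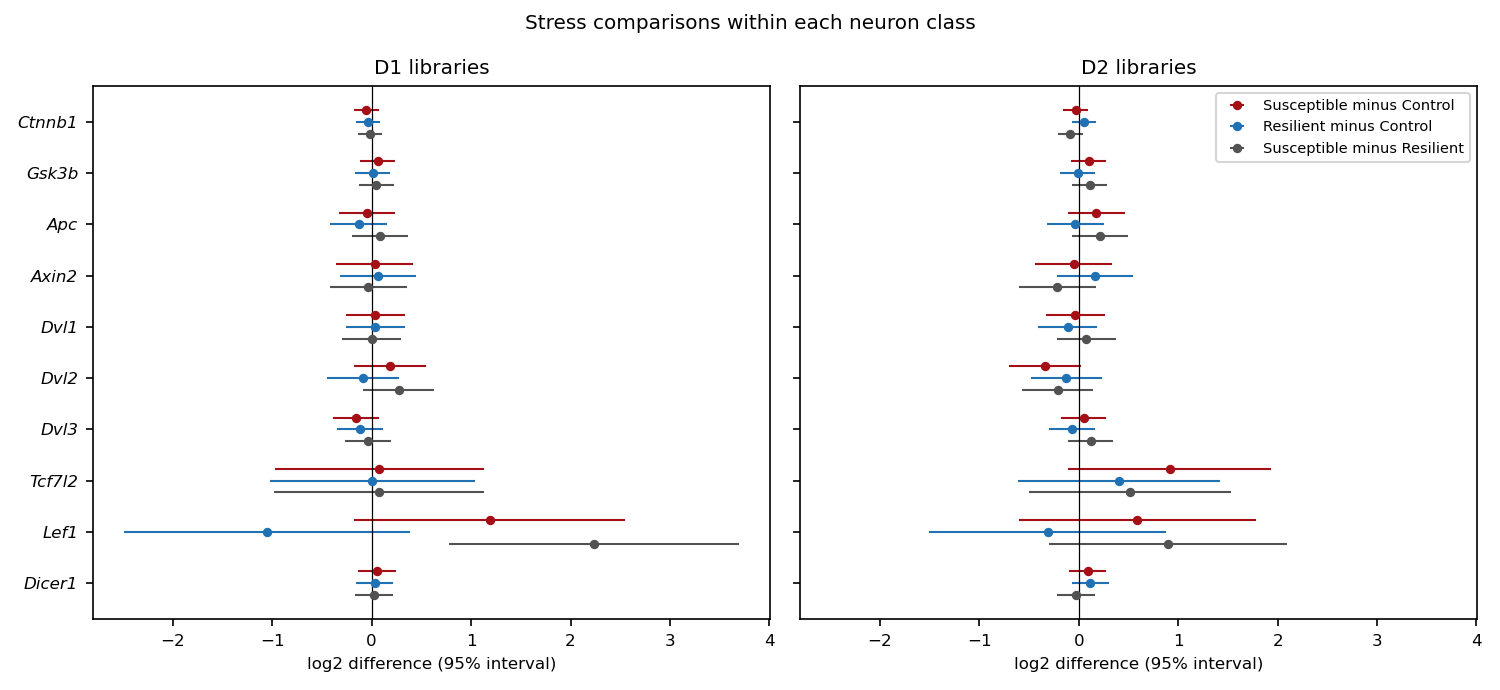
Points are log2 differences of the 10 genes in 3 stress comparisons within D1 (left) and D2 (right), and lines are 95% intervals from edgeR's quasi-likelihood fit. Ctnnb1, Gsk3b and Dicer1 have narrow intervals around 0, while Tcf7l2 and Lef1 have wide ones, and 1 interval, Lef1 in D1 Susceptible minus Resilient, lies clear of 0 before adjustment.

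Whether stress differences depended on the neuron class was tested directly, as the D1 change minus the D2 change. No member was called in the 3 tests, and 0% of all genes were called in each. At an unadjusted p under 0.05, Dvl2 passed for Susceptible minus Control (log2 0.52, SE 0.250, unadjusted p 0.0441, edgeR adjusted p 0.637), beside 7.79% of all genes. Leaving out 1 library at a time gave 0.35 to 0.64, the lowest without D2 Susceptible replicate 1. For Resilient minus Control and Susceptible minus Resilient the members passed 0 times, beside 4.99% and 12.4% of all genes.

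The wider pathway was read from 11 lists of 110 genes, of which 97 could be tested. D1 and D2 Control libraries differed in 13 of these 97 genes, with 3 higher in D1 and 10 in D2, beside 8.3% of all genes tested (3.51% higher in D1 and 4.8% in D2). The median log2 difference was 0.03 over the 97 genes and 0.00 over all genes tested. Calls numbered 1 of 13 Wnt ligands, 3 of 14 receptors, 2 of 8 genes of R-spondins and receptor turnover, 3 of 9 secreted inhibitors, 2 of 14 nuclear genes, 3 of 12 targets and 1 of 6 cadherin and catenin genes. None of 3 genes of Wnt secretion, 3 Dishevelled genes, 11 destruction complex genes or 12 microRNA machinery genes was called, and a few genes stand in more than 1 list. Whether these shares differ from each other was not tested. The genes named here had the smallest adjusted p of their list in that direction, and the next 5 were called in all 10 fits that left out 1 library.

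Among the ligands, Wnt7a was 33.7 ± 4.38 CPM in D1 Control against 49.1 ± 8.998 CPM for D2 (log2 -0.54, edgeR adjusted p 0.00216). Rspo1, an amplifier of Wnt signals, was 2.13 ± 0.491 against 5.02 ± 0.938 CPM (log2 -1.24, edgeR adjusted p 0.000849). Apcdd1, a membrane-bound Wnt inhibitor that is also a Wnt target, was 4.96 ± 1.13 against 25.3 ± 6.31 CPM (log2 -2.35, edgeR adjusted p 3.94e-08). Other genes of the secreted inhibitor list ran the other way. Dkk3, a Dickkopf family member, was 71.9 ± 16.9 CPM in D1 against 33.4 ± 5.25 in D2 (log2 1.10, edgeR adjusted p 0.000396). Frzb, a secreted Frizzled-related protein gene, was 12.5 ± 2.40 against 5.03 ± 2.11 CPM (log2 1.31, edgeR adjusted p 0.00355). The D1 and D2 Control libraries did not overlap for Rspo1, Apcdd1, Dkk3 or Frzb, and they did for Wnt7a. These genes were picked by their adjusted p in this same comparison, so the separation adds nothing to the calls. The share of all genes without overlap was not counted here either.

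Other calls in Control were lost when single libraries were left out. Tle1, a co-repressor partner of TCF proteins, was 46.3 ± 4.70 CPM in D1 against 60.4 ± 2.97 in D2 (log2 -0.38, edgeR adjusted p 0.0120), and missed without D1 Control replicate 3 (-0.32, adjusted p 0.0764). Ctnna1, which encodes alpha-catenin, was 48.2 ± 3.36 against 60.2 ± 3.81 CPM (log2 -0.32, edgeR adjusted p 0.0106), and missed without D1 Control replicate 3 (-0.27, adjusted p 0.0643) or D2 Control replicate 2 (-0.27, adjusted p 0.0560). The receptor gene Fzd5 (log2 -0.53, edgeR adjusted p 0.0195) missed without D1 Control replicate 3, 4 or 5 or D2 Control replicate 1, 2 or 3 (adjusted p 0.0524 to 0.0909). Fzd2 (log2 -1.35, edgeR adjusted p 0.0435) missed in 8 of 10 such fits, passing only without D1 Control replicate 1 or D2 Control replicate 5 (adjusted p otherwise 0.0513 to 0.141). Rspo3 (log2 0.81, edgeR adjusted p 0.0210) missed without D1 Control replicate 3 or 5 or D2 Control replicate 1, 2 or 3 (adjusted p 0.0501 to 0.0863). The pathway genes called numbered 7 when D1 Control replicate 3 was left out and 8 when D2 Control replicate 2 was, with 17 as the highest count.

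**Figure D4:**
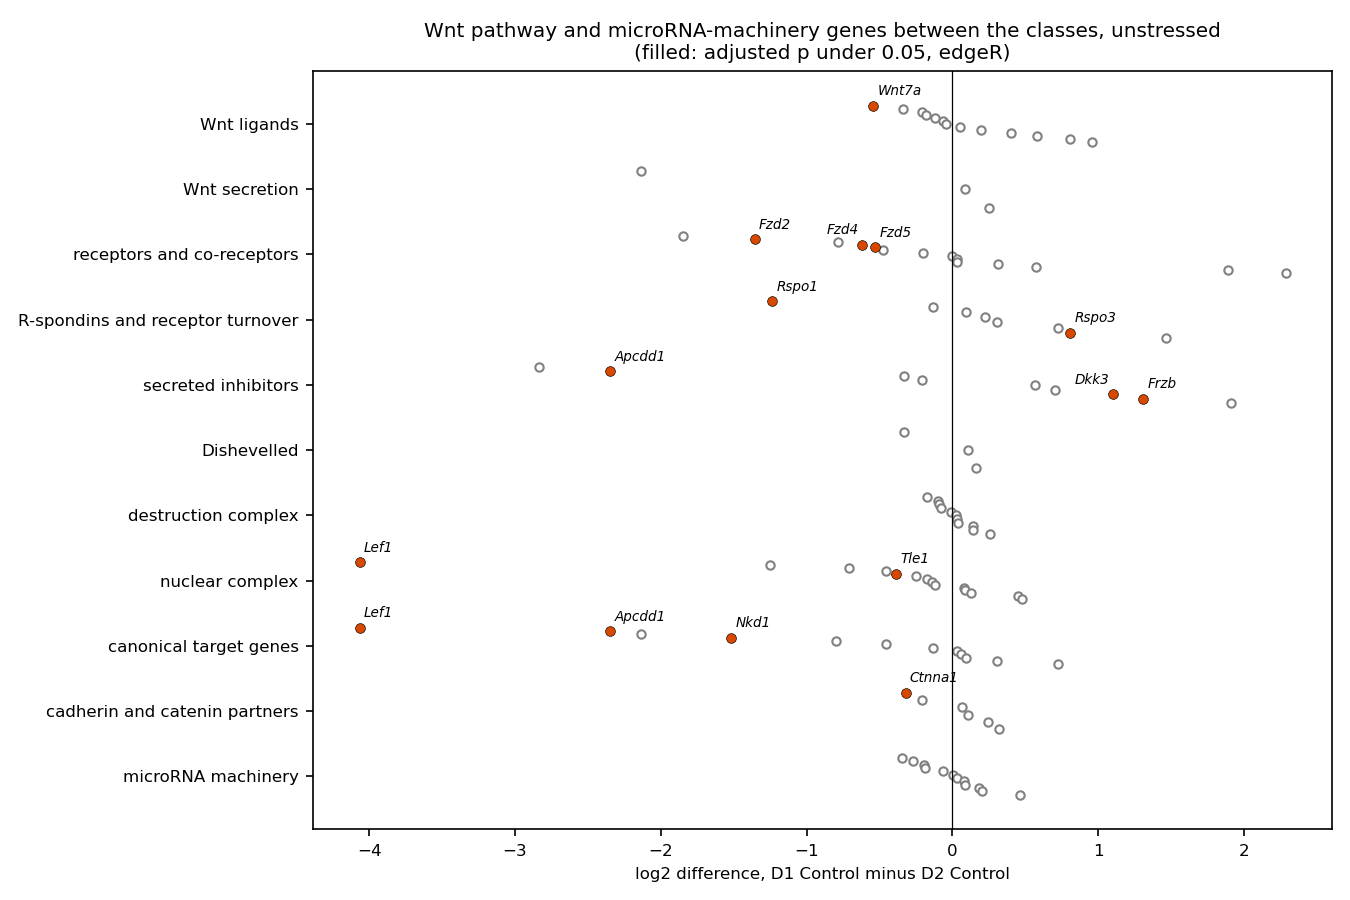
Each point is a tested gene of the list named on the vertical axis, placed by its log2 difference of D1 Control minus D2 Control (horizontal), with filled points for an edgeR adjusted p under 0.05, and vertical offsets within a list only separate the points. Lef1, at -4.07, is the point farthest from 0, and the Dishevelled, destruction complex and microRNA machinery lists hold no filled point.

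In Resilient mice 14 of 97 pathway genes differed between the classes, with 4 higher in D1 and 10 in D2, beside 6.65% of all genes (2.75% and 3.9%). The count was 22 without D2 Susceptible replicates 1 and 2, D1 Susceptible replicate 1 and D2 Resilient replicate 5. Apcdd1 (log2 -2.40, edgeR adjusted p 2.07e-08) and Dkk3 (1.16, adjusted p 0.000176) kept the direction they had in Control. The ligand Wnt9a was higher in D1 at 5.81 ± 1.07 against 2.13 ± 1.00 CPM (log2 1.45, edgeR adjusted p 0.00712). Receptor genes Fzd2 (log2 -2.67, edgeR adjusted p 0.000123) and Fzd4 (-0.91, adjusted p 0.00248) were higher in D2. Rspo3 was higher in D1 (log2 1.16, edgeR adjusted p 0.000848), and Ctnna1 was higher in D2 (-0.45, adjusted p 0.000318).

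In Susceptible mice 31 of 97 genes were called, with 10 higher in D1 and 21 in D2. The share over all genes was also higher there, at 23.9% (10.5% higher in D1 and 13.4% in D2). The pathway count was 21 without D2 Susceptible replicates 1 and 2, and 11 when only the D1 and D2 Susceptible libraries were fitted. Among genes called with and without these libraries, Wnt2 was 16.2 ± 0.371 CPM in D1 against 26.2 ± 5.45 in D2 (log2 -0.69, edgeR adjusted p 9.69e-05, and -0.57 without them). Ryk, a Wnt co-receptor gene, was 26.3 ± 3.82 against 51.6 ± 22.3 CPM, and its log2 difference of -0.97 became -0.43 (edgeR adjusted p 0.000219 and 0.0181). Fzd7 (-1.52, adjusted p 0.00173, and -1.17) and Tle1 (-0.56, adjusted p 0.000169, and -0.33) behaved alike in the edgeR fits. Ctnna1 was 49.8 ± 3.99 CPM in D1 against 77.3 ± 6.73 in D2 (log2 -0.63, edgeR adjusted p 2.67e-06, and -0.52 without them). Among D1-enriched genes, Rspo2 was 6.002 ± 2.03 against 1.25 ± 0.829 CPM (log2 2.27, edgeR adjusted p 0.00564, and 2.13 without them). The Rspo2 call was lost when only the D1 and D2 Susceptible libraries were fitted (2.27, edgeR adjusted p 0.106).

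Wif1, which encodes a secreted Wnt inhibitor, had 221 reads over the 5 D1 Susceptible libraries and 2 over the 5 D2 Susceptible libraries, 4 of which had none. The D2 level was 0.00686 of the D1 level (95% exact interval 0.000826 to 0.0251, counting error only). By edgeR, the log2 difference of D1 minus D2 in Susceptible mice was 6.77 (adjusted p 0.000247). It was 6.29 (edgeR adjusted p 0.00487) without D2 Susceptible replicates 1 and 2. D2 Control held 104 Wif1 reads and D2 Resilient 128, with 4 to 83 and 0 to 49 per library. No gene of the secreted inhibitor list, Wif1 among them, was called by edgeR in D2 Susceptible minus Control or D2 Susceptible minus Resilient. The reads were counted without molecular identifiers, so intervals and floors cover counting error only.

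Dicer1 was read beside 11 other tested genes of microRNA processing and action. None of the 12 was called between the classes in Control or in Resilient mice (edgeR, 1 of 12 at an unadjusted p under 0.05 in each), and none in any stress comparison. At an unadjusted p under 0.05, 8 of 12 passed in D2 Susceptible minus Resilient, beside 19.1% of all genes, and 5 of 12 in D2 Susceptible minus Control, beside 15.7%. These counts and shares include D2 Susceptible replicates 1 and 2 and were not recomputed without them. For the other 4 stress comparisons 0 or 1 of 12 passed. In Susceptible mice 3 of 12 were higher in D1 and 3 higher in D2, beside 10.5% and 13.4% of all genes, with Dicer1 among the 6 not called (log2 0.15, SE 0.0923, edgeR adjusted p 0.248). Tnrc6a, a GW182 family member that silences targets with Argonaute proteins, was 75.8 ± 8.34 CPM in D1 against 171 ± 117 in D2 (log2 -1.17, edgeR adjusted p 0.00289). Without D2 Susceptible replicates 1 and 2 the Tnrc6a difference was -0.21 (edgeR adjusted p 0.383). Its paralog Tnrc6c went from -0.65 (edgeR adjusted p 0.00388) to -0.14 (adjusted p 0.447), and Xpo5, the exporter of microRNA precursors, from 0.50 (adjusted p 0.0210) to 0.19 (adjusted p 0.293). Leaving out either of those libraries alone also took away the Xpo5 call (edgeR adjusted p 0.0570 and 0.0605). Prkra, a Dicer partner, was called with those libraries (0.78, edgeR adjusted p 0.00455) and without them (0.53, adjusted p 0.0386), and missed when only the D1 and D2 Susceptible libraries were fitted (0.79, adjusted p 0.112). In that smaller fit Tnrc6a, Tnrc6c and Xpo5 missed as well (edgeR adjusted p 0.0845, 0.118 and 0.200). The destruction complex genes Amer1, Csnk1e and Apc2 were called in Susceptible mice as well, and missed without those libraries (edgeR adjusted p 0.926, 0.557 and 0.293). Each also missed without either library alone, Amer1 also without D1 Susceptible replicate 2 or 4 (adjusted p 0.0587 in both), and Apc2 also without D1 Susceptible replicate 1 (adjusted p 0.0977).

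Likeness between genes was read from their variation among libraries of the same group. After group means were subtracted from log2 CPM, Ctnnb1 correlated with Chgb (Pearson's r 0.764, Spearman's rho 0.739), Hsp90ab1 (0.753 and 0.729) and Ciao1 (0.743 and 0.689) over 30 libraries. These were the 3 highest of 8873 genes compared. For Dicer1 the 3 highest were Ppp1r12b (r 0.693, rho 0.606), Atp9b (0.690 and 0.705) and Atp8a2 (0.688 and 0.664). Without the 4 libraries D2 Susceptible replicates 1 and 2, D1 Susceptible replicate 1 and D2 Resilient replicate 5, r lay at 0.729 to 0.755 for the first 3 genes and at 0.664 to 0.703 for the others. All points share library depth and scaling, and the values are descriptions of likeness across libraries with no test.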

How the data were processed

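The deposited files hold counts of reads per gene that the authors made, without normalization, for 55335 genes in 30 libraries. The per-library files and the series table agreed exactly in all 30 libraries. Per the labels' protocols, an anti-HA antibody pulled down polyribosomes and SMART-Seq v4 libraries were made from 10 ng of RNA. HISAT2, HTSeq, GRCm38 and mm10 are named in the submitters' processing notes. Their versions, the annotation release and the use of strand in counting are not stated in the labels. Group and replicate were read from each title.

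Symbols, lengths and coordinates came from GENCODE M21 (GRCm38), matched for 55154 genes. Lef1 lies at chr3:131110471-131224356, Ctnnb1 at chr9:120929216-120960507, Dicer1 at chr12:104687742-104751952, Tcf7l2 at chr19:55741820-55933654 and Axin2 at chr11:108920349-108950783. Genes were filtered with filterByExpr (minimum count 10, minimum total 15), which left 19368, scaled by TMM. The test was that of edgeR 4.0.16 under R 4.3.3 (quasi-likelihood F test, robust, 6 groups in 1 model, 12 comparisons, Benjamini-Hochberg at 0.05). The biological coefficient of variation was 41.4%. DESeq2 1.42.0, limma 3.58.1 (voom), other scaling and filtering, a replicate block, and fits without named libraries were alternatives. The test was tried on simulated data with less spread between replicates than these libraries have, so that trial does not measure how it performs on them. A count of 0 allowed 3 counts, 0.0455 to 0.103 CPM by library on library sizes before TMM scaling. The TMM factors ran from 0.340 to 1.08, and a smaller factor gives a higher floor on the scaled values. Replicates differed beyond sampling noise (chi-square per degree of freedom 12.8 to 2672 over 60 pairs). Replicates are separate pools of mice, per the labels.

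All 10 members are described. From each pathway list and comparison, the 2 genes per direction of smallest adjusted p, if under 0.05, could be named, and for Ctnnb1 and Dicer1 the 3 genes with the highest correlation among genes of at least 10 CPM. The members and lists were chosen with earlier results of these data known.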

Additional observations from a re-analysis of the deposited data

Results flagged for a closer look

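In 7 of 60 sets of 5 libraries (10 genes in 6 groups), 1 library stood apart from the other 4 by Dixon's test, where chance gives about 1 in 20. Gsk3b was 289 CPM in D1 Resilient replicate 1 against 264 to 268 CPM in the others, and 349.5 CPM in D2 Susceptible replicate 2 against 257 to 274 CPM. Apc was 209 CPM in D2 Resilient replicate 1 against 167 to 176 CPM. Dvl1 was 44.2 CPM in D1 Susceptible replicate 4 against 37.7 to 38.8 CPM, and 17.4 CPM in D2 Susceptible replicate 1 against 35.8 to 41.6 CPM. Tcf7l2 was 3.04 CPM in D1 Susceptible replicate 1 against 0.475 to 1.09 CPM, in the library of lowest depth. Lef1 was 14.96 CPM in D2 Susceptible replicate 2 against 3.99 to 5.31 CPM, while the endothelial sum of that library, 274 CPM, lay within the 243 to 370 CPM of its group.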

How the results depend on the processing

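Among 2489 recomputed log2 differences of the 10 genes, a reversal was counted only where a fit gave a call, and none was found. Most of these differences were not called, so they could not count as reversed. Some of them changed sign between fits, such as Dicer1 in D1 Susceptible minus Control (-0.03 to 0.11) and Ctnnb1 in D1 Susceptible minus Resilient (-0.04 to 0.02). The Lef1 class differences passed in every fit run, at -4.47 to -3.83 in Control, -5.56 to -4.47 in Resilient and -4.06 to -2.95 in Susceptible mice (largest edgeR, DESeq2 or limma adjusted p 0.00109, 0.000917 and 0.0155). The count of members called was 0 in every fit of every stress comparison. Between classes it was 3 in Control (main count 1) and 2 in Resilient (main count 1) with limma voom and quality weights. It was 2 in Resilient and 1 in Susceptible (main count 2) with only the groups compared, 1 in Susceptible without D2 Susceptible replicates 1 and 2, and 2 in Resilient and 1 in Susceptible without 4 libraries (these, D1 Susceptible replicate 1 and D2 Resilient replicate 5). Leaving out 1 library at a time gave 1 to 2 in Susceptible.

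Pathway genes called moved more. DESeq2 gave 2 in D2 Susceptible minus Control and 11 in D2 Susceptible minus Resilient, where edgeR gave 0. Limma voom gave 1 in D1 Resilient minus Control, 38 in Control classes (main 13), 29 in Resilient classes (main 14) and 1 in the class difference of Resilient minus Control. With only the groups compared the class counts were 24, 25 and 11 (main 13, 14 and 31), and without the 4 libraries the Resilient count was 22. Leaving out 1 library gave 7 to 17 for the Control classes, 0 to 8 for D2 Susceptible minus Control and 0 to 15 for D2 Susceptible minus Resilient (both highest without D2 Susceptible replicate 3), and 0 to 1 for the class difference of Susceptible minus Resilient. The cause was not tested. Between same-numbered libraries, r ran from -0.40 to 0.44 over 45 pairs, and 14 were over 0.1. Libraries of different number were not correlated, so these values cannot decide whether same-numbered libraries pair. With the replicate number as a block, members called were 1, 1 and 2 and pathway genes 12, 14 and 29 in Control, Resilient and Susceptible classes, and 0 in each stress comparison. Depth limited Lef1 in D1, with 0 to 54 reads per library, and Tcf7l2.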
